A study of Mus musculus with 33 samples.

Results

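The elastic fiber genes described here were 10 genes matched by symbol in the count table: elastin (Eln), the fibrillins Fbn1 and Fbn2, the microfibril-associated genes Mfap2 and Mfap4, and the fibulin family members Fbln1, Fbln2, Fbln5, Efemp1 and Efemp2. All 10 were found among the 17120 genes of the table, and the filter on low counts removed no gene of the table. An elastic fiber is a core of cross-linked elastin laid on a scaffold of fibrillin microfibrils. Fibulin-4 (Efemp2) and fibulin-5 (Fbln5) bring tropoelastin and lysyl oxidase to the scaffold during assembly, and microfibrils also hold latent TGFβ in the matrix. In tendon such fibers run between the collagen bundles and around the cells, and they let the tissue recoil after stretch.

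Bulk RNA-seq was performed on mouse embryonic stem cells (mESCs) during differentiation from paraxial mesoderm (PM) toward a tendon or a fibrocartilage fate, in 33 libraries of 11 groups with 3 biological replicates each. The cells carried the ScxGFP reporter, a GFP transgene under control sequences of the tendon gene Scx, and the study used 3 such lines, although which line each library came from was not given. All groups first passed through embryoid bodies with the BMP inhibitor LDN-193189 and then through PM induction with LDN-193189 and the Wnt agonist CHIR. The study's PM protocol for these fates also contained AGN 193109, which acts as an inverse agonist on retinoic acid receptors (RARs). This comes from the methods and not from the sample labels. If it held for these libraries, both conditions shared that exposure. PM libraries were collected at culture day 6 (D6), and the sample labels give them as embryoid bodies and all later libraries as monolayer. From D6 the cells were plated as a monolayer with TGFβ1, the hedgehog agonist SAG and FGF2, plus either CD1530, an agonist of RARγ (the tendon condition), or AGN 193109 (the fibrocartilage condition), and were collected 0.25, 0.75, 1.5, 2.5 and 4 days later, named D6.25 to D10 by culture day. The first step therefore joined a change of culture format to the induction media, and their effects cannot be told apart.

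Library totals ranged from 17116084 to 38120841 counts with a median of 19899242. Values are given as CPM, read counts set to a common library size after scaling by TMM (trimmed mean of M-values), and differences as log2 fold changes ± SE. A gene was called when its adjusted p from edgeR's quasi-likelihood F test, Benjamini-Hochberg adjusted over 17120 genes, was under 0.05. Replicates of a group correlated at 0.993 to 0.998 on the log scale and no pair of libraries was identical. The CD1530 replicate 1 library at D6.75 stood apart. Its deviations from the group mean fell with exon length across 12209 genes (r = -0.638), and the long genes Fbn1 and Fbn2 were lowest there. Trends of smaller size were present in other groups. In PM, r was 0.332 in replicate 1 and -0.399 in replicate 2. In AGN 193109 at D7.5, r was 0.333 in replicate 2 and -0.335 in replicate 3. The 5 PM markers (T, Tbx6, Msgn1, Mesp2, Meox1) summed to 96.0 to 103 CPM in PM, 73.3 to 76.9 in CD1530 at D10 and 91.2 to 96.3 in AGN 193109 at D10, where Msgn1 alone was at the counting floor of 3 counts or fewer. The sum at D10 was mostly Meox1, the 1 gene of the list called higher than in PM (5.91 to 73.7 CPM in CD1530 and 65.4 in AGN 193109). Of the 5, 3 were called lower than in PM in CD1530 and 4 in AGN 193109. Of all genes, 39.9% and 40.4% were called lower in these comparisons, and 43.3% and 41.6% higher. The summed CPM of 4 tendon markers (Scx, Mkx, Tnmd, Egr1) was 107 to 131 in PM, 1066 to 1094 in CD1530 at D10 and 1357 to 1419 in AGN 193109 at D10. Of these, Tnmd was at the counting floor in PM. Against AGN 193109 at D10, 1 of the 4 was called higher in CD1530 and 2 lower, beside 22.7% and 24.0% of all genes. The 5 cartilage markers (Sox9, Col2a1, Acan, Matn4, Col9a1) summed to 19.1 to 21.7 CPM in PM, 235 to 241 in CD1530 at D10 and 3077 to 3213 in AGN 193109 at D10. In bulk RNA, fewer cells of a type and less RNA per cell cannot be told apart.

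Promoter sequences are shown for 3 members that moved in different ways between the conditions, Mfap2 and Fbln5 (lower in CD1530 at D10) and Efemp1 (higher in CD1530 at D10). Promoters of 7 of the 10 members were matched by symbol in RefSeq (GRCm38.p6), each from 250 bases before to 50 after the start. Eln, Fbn2 and Mfap4 had no match and are not part of the motif counts. The start used lay 1555 bases for Fbn1 and 309 bases for Fbln2 from the gene's start in GENCODE M21. The 250 upstream bases are printed 5′ to 3′ along the gene's strand, with capitals marking the motifs searched on both strands: AGGTCA (the nuclear receptor half-site that RARs can bind), CAGAC (a SMAD element) and GGGCGG (a GC box), each in either orientation. These motifs do not overlap one another in the stretches shown. The Mfap2 stretch is chr4:141010174-141010423 on the forward strand, that of Fbln5 is chr12:101819120-101819369 on the reverse strand, and that of Efemp1 is chr11:28852955-28853204 on the forward strand.
Mfap2: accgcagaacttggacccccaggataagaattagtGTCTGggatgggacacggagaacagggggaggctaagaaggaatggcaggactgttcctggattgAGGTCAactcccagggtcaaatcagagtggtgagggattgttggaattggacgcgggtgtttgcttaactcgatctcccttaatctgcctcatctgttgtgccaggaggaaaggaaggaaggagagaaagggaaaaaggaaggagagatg
Fbln5: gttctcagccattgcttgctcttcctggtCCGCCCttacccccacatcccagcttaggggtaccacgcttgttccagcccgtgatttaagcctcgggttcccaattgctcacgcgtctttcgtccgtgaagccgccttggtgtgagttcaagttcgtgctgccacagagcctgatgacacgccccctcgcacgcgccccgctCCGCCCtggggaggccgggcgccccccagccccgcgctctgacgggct
Efemp1: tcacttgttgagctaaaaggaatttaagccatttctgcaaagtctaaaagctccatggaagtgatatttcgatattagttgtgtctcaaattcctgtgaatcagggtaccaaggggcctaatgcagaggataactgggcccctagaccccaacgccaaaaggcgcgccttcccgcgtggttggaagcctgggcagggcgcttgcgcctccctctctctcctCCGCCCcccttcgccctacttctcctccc
Over the whole window of 250 bases before to 50 after the start, AGGTCA was found in 1 of the 7 member promoters, that of Mfap2, and in 16.3% of 32851 promoters of the same length. CAGAC was found in 5 of 7 (49.6% of all promoters), GGGCGG in 5 of 7 (35.7%) and the TATA box TATAAA in 0 of 7 (13.6%). A match is a run of letters, and no binding was measured here.

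In PM the elastic fiber genes were at very different levels. Per kilobase of the principal transcript, Fbln2 (57.0 ± 4.94 CPM per kb, SD, n = 3) and Fbln1 (52.0 ± 2.14) were the highest, with overlapping libraries. Elastin (0.601 ± 0.124 CPM per kb) and Fbln5 (0.552 ± 0.0649) were the lowest, and their libraries also overlapped. Fbln1 and Fbln2 encode fibulins found in basement membranes and embryonic mesenchyme, while elastin forms the core of the fiber. By D10 the order had changed. In CD1530 elastin (408 ± 6.80 CPM per kb) stood first, above Mfap2 (388 ± 3.49), and the libraries of these 2 genes did not overlap. In AGN 193109 Mfap2 (583 ± 15.5) and Mfap4 (324 ± 4.78) stood first, and elastin (164 ± 4.88) ranked 5, after Fbln2 (188 ± 8.72) and Fbln1 (179 ± 4.16), whose libraries overlapped. The place of elastin depended on the length used, since with all annotated exon bases it ranked 2 in CD1530 and 6 in AGN 193109.

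The first question was how the genes changed over the whole of the induction. From PM to D10, all 10 members rose in CD1530, beside 83.2% of all genes called in either direction, 43.3% higher and 39.9% lower. In AGN 193109, 9 rose and Efemp1 fell, beside 82.0% of genes called, 41.6% higher and 40.4% lower. Both comparisons used the same 3 PM libraries. The median log2 fold change of the 10 members was 4.64 in CD1530 and 5.01 in AGN 193109, against medians over all genes of 0.04 and -0.00. Since most genes were called in these comparisons, the counts alone say little about the members.

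Elastin, at chr5:134702593-134747323 (GRCm38, reverse strand), covered the widest range of the 10. It was at 2.73, 1.79 and 2.42 CPM in the 3 PM libraries, from 38 to 57 counts. At D10 it reached 1544, 1574 and 1596 CPM in CD1530 and 653, 626 and 617 CPM in AGN 193109. The rise was 9.41 ± 0.077 on the log2 scale in CD1530 and 8.09 ± 0.077 in AGN 193109 (adjusted p 9.75e-49 and 1.07e-46, edgeR). Most of it came late. At D6.75 the mean was 0.363% of the D10 level in CD1530 and 0.691% in AGN 193109, and at D8.5 it was still only 11.6% and 9.22%.

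Fbln5, at chr12:101746565-101819055 (reverse strand), followed a similarly late course. It did not pass the test at the first step, with 3.54, 3.31 and 2.80 CPM in PM and, at D6.25, 2.52, 3.42 and 2.73 CPM with CD1530 and 3.57, 2.29 and 3.32 CPM with AGN 193109. The differences were -0.16 ± 0.14 and -0.07 ± 0.14 on the log2 scale. It then rose at every later step in both conditions, although in CD1530 the rise of 0.47 ± 0.13 from D6.25 to D6.75 lost its call without CD1530 replicate 2 of D6.75 (adjusted p 0.0651) and when only the groups compared were fitted (0.0777). By D10 Fbln5 was 6.11 ± 0.08 above PM in CD1530 and 6.90 ± 0.08 above PM in AGN 193109 on the log2 scale.

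Among the microfibril genes, Fbn2, Mfap2 and Mfap4 made a larger share of their log2 rise at the first step than elastin or Fbn1. Fbn2, a fibrillin of embryonic microfibrils, was at 18.6, 17.0 and 19.3 CPM in PM and at 181, 205 and 217 CPM in CD1530 and 183, 184 and 202 CPM in AGN 193109 after 0.25 days. None of the D6.25 libraries came near the PM range. The step was 3.46 ± 0.14 and 3.38 ± 0.14 on the log2 scale, and it brought Fbn2 to 22.0% and 23.3% of its D10 level. Mfap2, which encodes a glycoprotein bound along fibrillin microfibrils, went from 12.4 to 15.2 CPM in PM to 71.0 to 75.5 CPM in CD1530 and 67.4 to 69.4 CPM in AGN 193109 (2.36 ± 0.05 and 2.27 ± 0.05). Mfap4, a fibrinogen-domain protein that binds elastin and fibrillin, rose by 2.09 ± 0.06 and 2.02 ± 0.06 at the same step. Fbn1, the major fibrillin of later microfibrils, rose by only 0.82 ± 0.15 and 1.07 ± 0.15. Elastin itself rose by 1.20 ± 0.13 and 1.11 ± 0.13 at that step, from its low level in PM. In that step 9 of 10 members were called higher in each condition, beside 67.8% of all genes called (34.5% higher) in CD1530 and 68.1% (35.0% higher) in AGN 193109. Over the 4 later steps the members called in CD1530 numbered 8, 8, 8 and 10, beside 45.9%, 34.2%, 36.5% and 57.3% of all genes, and those in AGN 193109 numbered 7, 8, 9 and 9, beside 43.7%, 30.3%, 42.1% and 59.4%. All but 5 of these calls were rises, the exceptions being Efemp1 at the first 2 of these steps in both conditions and Fbln2 at the last step in CD1530.

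The balance of the 2 fibrillins therefore shifted. The ratio of Fbn1 to Fbn2 counts, which is compared here between libraries and not read as a molar ratio, was 3.45, 3.20 and 2.55 in the PM libraries. At D6.25 it was 0.492 ± 0.063 (SD, n = 3) with CD1530 and 0.620 ± 0.015 with AGN 193109. It climbed again to 1.30 ± 0.02 and 1.62 ± 0.04 at D10, where the 3 CD1530 libraries lay below the 3 AGN 193109 libraries. The difference at D10 was -0.31 on the log2 scale. Its exact permutation p of 0.1, from a test on both sides, was the smallest that 3 against 3 libraries allow, and p was 0.154 after adjustment over 20 tests of 4 ratios at 5 days, with the pairs chosen knowing the members' values.

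**Figure D1:**
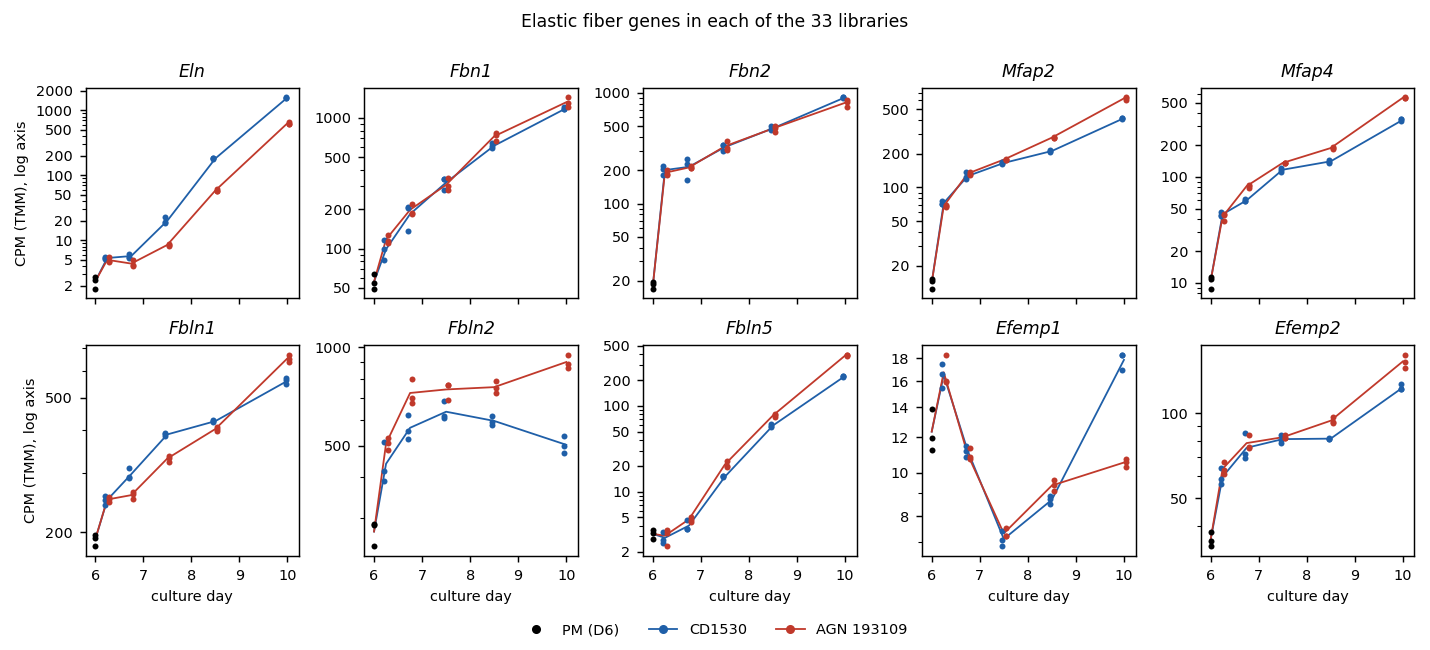
CPM (TMM-scaled, log axis) of each elastic fiber gene against culture day, 1 point per library, with lines through the group means of CD1530 (blue) and AGN 193109 (red) starting from PM (black). Eln and Fbln5 climb late, Fbn2, Mfap2 and Mfap4 jump at D6.25, and Efemp1 dips to about 7 CPM at D7.5 before it parts between the conditions at D10.

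Efemp1 and Fbln2 did not follow a steady rise. Efemp1, at chr11:28853204-28926743 (forward strand), encodes fibulin-3, an extracellular matrix protein of fascia and other connective tissues. It was at 13.9, 11.2 and 12.0 CPM in PM, rose by 0.42 ± 0.08 in CD1530 and 0.44 ± 0.08 in AGN 193109 to D6.25, and then fell at each of the next 2 steps in both conditions. At D7.5 it was at 7.08, 7.42 and 6.85 CPM in CD1530 and 7.22, 7.53 and 7.21 CPM in AGN 193109. From D7.5 to D8.5 it rose by 0.29 ± 0.09 in CD1530, a call lost without CD1530 replicate 3 of D7.5 (adjusted p 0.0535), and by 0.36 ± 0.09 in AGN 193109. Over the last step it rose by 1.04 ± 0.08 in CD1530, whereas the change in AGN 193109 was 0.17 ± 0.09 (adjusted p 0.0979, edgeR; called at 0.0452 with DESeq2 size factors). Its net fall of 0.23 ± 0.09 from PM to D10 in AGN 193109 (adjusted p 0.0131) lost its call without PM replicate 1 (0.166).

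Fbln2, which encodes fibulin-2, was at 288, 285 and 246 CPM in PM and gained most of its level by D6.75. Its later course differed between conditions. In CD1530 it was at 605, 683 and 614 CPM at D7.5, at 126% of the D10 mean, and fell by 0.24 ± 0.09 on the log2 scale over the last step. In AGN 193109 it was at 768, 768 and 691 CPM at D7.5 and rose by 0.25 ± 0.09 over the last step (adjusted p 0.0145). Both of these last changes were small and rested on single libraries. In CD1530 the call was lost without D8.5 replicate 2 (adjusted p 0.0675), D10 replicate 1 (0.0511) or D10 replicate 3 (0.087), and in AGN 193109 without D8.5 replicate 2 (0.0555) or D10 replicate 2 (0.0636), as well as with scaling by library size only (0.119). The difference between the 2 conditions in that step was -0.50 ± 0.12 (adjusted p 0.00372) and kept its call in every alternative run.

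The second question was how the 2 ligands differed at each day. At D6.25 no member was called, beside 1.92% of all genes called (1.23% higher and 0.695% lower). 2 members had an unadjusted p under 0.05, Mfap2 (0.0454) and Fbln2 (0.0284), and DESeq2 also called none. At D6.75 4 of 10 members were called, beside 18.0% of all genes (7.94% higher and 10.0% lower), with Eln and Fbln1 higher and Mfap4 and Fbln2 lower in CD1530. At D7.5 4 were called, beside 26.9% (15.2% higher and 11.8% lower), with Eln and Fbln1 higher and Mfap4 and Fbln5 lower. Fbln2 (-0.23 ± 0.09, adjusted p 0.0577) and Mfap2 (-0.10 ± 0.04, adjusted p 0.0702) lay just outside the threshold that day. Both were called as lower by DESeq2 (adjusted p 0.0136 and 0.0219), with DESeq2 size factors (0.0432 and 0.0347), with library size only (0.0375 and 0.0398) and with only the 2 groups fitted (0.0107 and 0.0111). At D8.5 6 were called, beside 40.0% (20.4% higher and 19.6% lower), with Eln higher and Mfap2, Mfap4, Fbln2, Fbln5 and Efemp2 lower. At D10 8 were called, beside 46.6%: Eln and Efemp1 were higher, and Mfap2, Mfap4, Fbln1, Fbln2, Fbln5 and Efemp2 were lower in CD1530. The background at D10 was 22.7% called higher and 24.0% called lower. Libraries of the 2 conditions did not overlap for 1, 4, 6, 9 and 10 of the members over the 5 days in order, beside 21.1%, 26.3%, 42.5%, 51.4% and 57.0% of all genes. The members' median difference at D10 was -0.26, against -0.02 over all genes.

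Elastin was the member with the widest gap between the conditions and went the opposite way to most of the others. At D6.25 its libraries overlapped, at 5.44, 5.16 and 5.37 CPM in CD1530 and 4.80, 4.59 and 5.58 CPM in AGN 193109. At D6.75 they were 5.36, 6.18 and 5.59 CPM against 4.01, 4.91 and 4.19 CPM, a difference of 0.39 ± 0.11 on the log2 scale (adjusted p 0.00821). This call rested on few counts, from 75 to 136 a library. It was lost without CD1530 replicate 2 (adjusted p 0.0515), without AGN 193109 replicate 1 (0.0808) and when only these 2 groups were fitted (0.124).

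From D7.5 the separation of elastin was clear in all libraries. It was at 22.9, 18.1 and 18.8 CPM in CD1530 and 8.05, 8.55 and 8.79 CPM in AGN 193109 at D7.5, a difference of 1.23 ± 0.08. At D8.5 it was at 182, 179 and 184 CPM against 56.3, 60.9 and 57.7 CPM, a difference of 1.64 ± 0.05. At D10 the difference was 1.31 ± 0.05 (adjusted p 4.66e-26), that is 2.49-fold higher in CD1530. The gap in CPM was thus widest at D10, while the gap on the log2 scale was widest at D8.5. Over the last step elastin rose by 3.11 ± 0.05 in CD1530 and by 3.44 ± 0.05 in AGN 193109, and these rises differed by -0.33 ± 0.07 (adjusted p 0.000186, edgeR).

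Smooth muscle and endothelial cells are other producers of elastin, and their markers were set beside this result. The 5 smooth muscle markers (Myh11, Acta2, Tagln, Cnn1, Smtn) summed to 781 to 804 CPM in CD1530 and 782 to 792 CPM in AGN 193109 at D10, and none was at the floor. Of the 5, 1 was called higher and 1 lower in CD1530 at D10, beside 22.7% and 24.0% of all genes. The list median was 0.15 on the log2 scale. Myh11 was at 17.1 ± 0.67 CPM in CD1530 and 7.19 ± 0.94 CPM in AGN 193109, values that stand for that gene alone. At D8.5 the sums were 626 to 645 and 615 to 638 CPM. At D7.5 they were lower in CD1530, at 218 to 222 against 305 to 309 CPM. Of the 5 smooth muscle markers, 2 were called lower and 0 higher that day, beside 11.8% and 15.2% of all genes. The 5 endothelial markers (Pecam1, Cdh5, Tek, Kdr, Emcn) summed to 377 to 396 CPM in CD1530 against 229.7 to 256 CPM in AGN 193109 at D7.5, and to 142 to 155 against 132 to 139.6 CPM at D10. Of these 5, 4 were called higher at D7.5, beside 15.2% of all genes. At D10 2 were called higher and 2 lower, beside 22.7% and 24.0%. The 5 neural markers (Sox1, Sox2, Pax6, Tubb3, Elavl3) were all called higher in CD1530 at D10, beside 22.7% of all genes. They summed to 139.8 to 152 against 65.9 to 66.7 CPM. The part of these cell types in the elastin result was not tested.

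The microfibril genes split into a pair that differed and a pair that was not called. Mfap2, at chr4:141010418-141015984 (forward strand), was at 208, 217 and 211 CPM in CD1530 and 279, 281 and 277 CPM in AGN 193109 at D8.5. By D10 Mfap2 stood at 412, 419 and 418 CPM against 643, 625 and 609 CPM, a difference of -0.59 ± 0.04. Mfap4, at chr11:61485431-61488900 (forward strand), was lower in CD1530 already at D6.75, at 59.8, 61.3 and 59.5 CPM against 82.2, 79.1 and 84.4 CPM (-0.44 ± 0.05). At D10 it was at 338, 349 and 349.7 CPM against 566, 558 and 549.8 CPM (-0.69 ± 0.04). No library of one condition reached the range of the other for either gene at D8.5 or D10.

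The fibrillins themselves were not called at any of the 5 days. At D10 Fbn1 was at 1209, 1177 and 1181 CPM in CD1530 and 1216, 1445 and 1302 CPM in AGN 193109, a difference of -0.15 ± 0.13 with a 95% interval of -0.41 to 0.10 (adjusted p 0.366). Fbn2 was at 913, 917 and 907 CPM against 752, 868 and 824 CPM, a difference of 0.16 ± 0.11 with an interval of -0.04 to 0.37 (adjusted p 0.223). For both genes the libraries of the 2 conditions did not overlap at D10. When only the 2 groups were fitted, Fbn2 was called at D10 (0.18, adjusted p 0.00463) and Fbn1 at D8.5 (-0.24, adjusted p 0.0179). The spread of these long genes was wide in some groups: at D6.75 in CD1530 Fbn1 was at 137, 206 and 208 CPM and Fbn2 at 162, 228 and 254 CPM, with replicate 1 the lowest for both.

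Among the fibulins, 4 of 5 were called lower and 1 higher in CD1530 at D10, beside 24.0% and 22.7% of all genes. Fbln5 parted at D7.5, with 14.6, 15.1 and 15.2 CPM in CD1530 and 22.6, 19.6 and 20.1 CPM in AGN 193109 (-0.47 ± 0.07). At D10 it was at 219.7, 225 and 225 CPM against 393, 376 and 388 CPM (-0.79 ± 0.05, adjusted p 4.71e-17). Fbln5 encodes a protein that binds tropoelastin and is needed to organize it on microfibrils. Its difference was opposite in sign to that of elastin, and from D7.5 on both were called. Fbln2 had the largest difference of the lower members at D10, with 499.6, 533 and 475 CPM in CD1530 and 888, 946 and 866 CPM in AGN 193109 (-0.84 ± 0.09). Efemp2, which encodes fibulin-4, a protein that binds lysyl oxidase and tropoelastin, differed less. It was at 121, 127 and 121 CPM in CD1530 and 152, 161 and 144 CPM in AGN 193109 at D10 (-0.31 ± 0.05).

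Fbln1 changed the sign of its difference during the time course. At D6.75 it was higher in CD1530, at 310.3, 290.1 and 291 CPM against 262, 250.2 and 259 CPM (0.21 ± 0.03), and at D7.5 at 390.1, 393 and 385 CPM against 332, 336 and 323 CPM (0.24 ± 0.03). At D8.5 the difference of 0.08 ± 0.03 was not called (adjusted p 0.0598). It was called with the replicate number as a block (0.0495), with only the 2 groups fitted (0.0244) and with scaling by library size only (0.00734). At D10 Fbln1 was lower in CD1530, at 564, 571 and 549 CPM against 670.0, 654 and 639.5 CPM (-0.22 ± 0.03, adjusted p 3.79e-07). Libraries of the 2 conditions did not overlap at any of these 4 days.

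Efemp1 was called between conditions only at D10 among the 5 days tested. At D8.5 it was at 8.88, 8.51 and 8.73 CPM in CD1530 and 9.61, 9.38 and 9.11 CPM in AGN 193109 (-0.11 ± 0.09, adjusted p 0.339). At D10 it was at 18.3, 17.0 and 18.3 CPM against 10.8, 10.3 and 10.6 CPM (0.76 ± 0.08, adjusted p 2.28e-10). Per kilobase it remained the lowest of the 10 genes in both conditions at D10, at 8.77 ± 0.39 and 5.18 ± 0.11 CPM per kb.

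**Figure D2:**
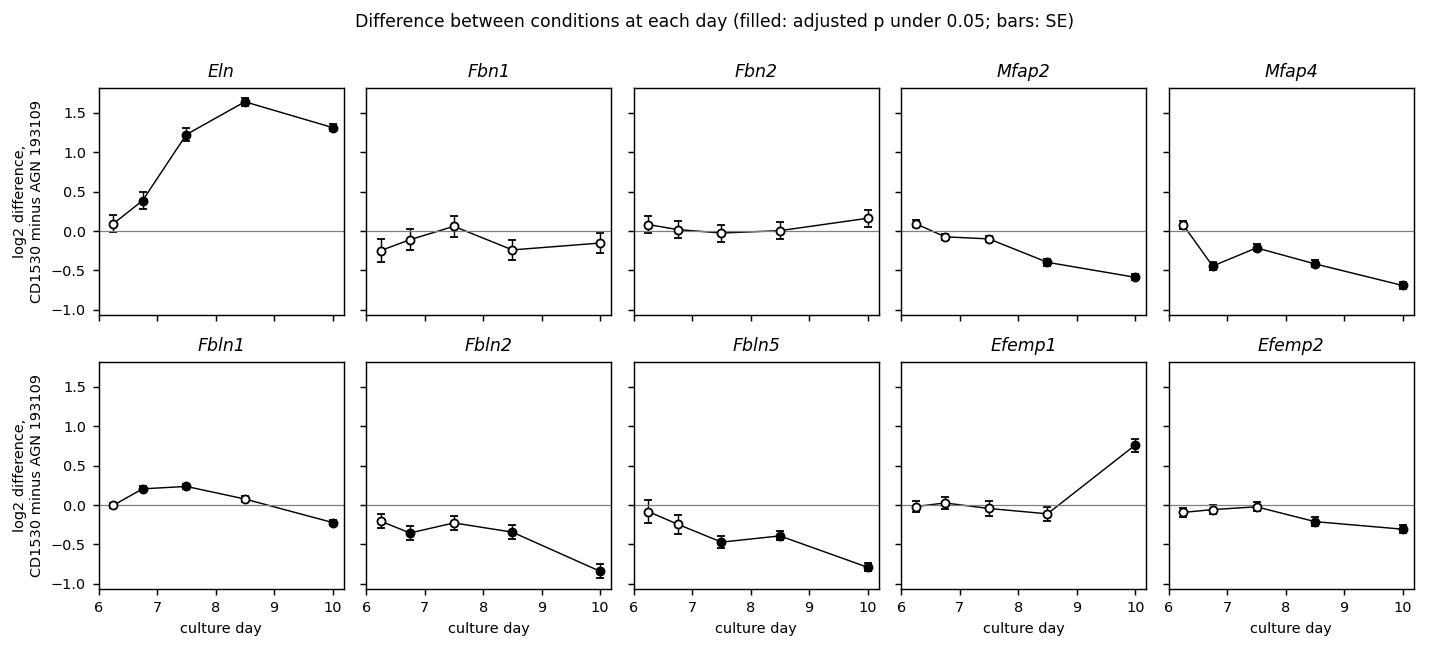
Log2 difference CD1530 minus AGN 193109 (y axis) for each elastic fiber gene at each of the 5 days after PM (x axis), with SE bars and filled points where the adjusted p was under 0.05. Eln rises to 1.64 at D8.5, Fbn1 and Fbn2 stay unfilled at all 5 days, Fbln1 crosses 0, and Efemp1 is filled at D10 alone.

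Whether the difference between conditions changed with time was tested directly. Over the 5 days, 8 of 10 members were called in the test with 4 degrees of freedom, beside 48.8% of all genes. Fbn1 (adjusted p 0.579) and Fbn2 (0.788) were not. Between D8.5 and D10, the last step, 7 of 10 were called, beside 26.8% of all genes. For Mfap2, Mfap4, Fbln1, Fbln2 and Fbln5 the difference became more negative, by 0.19 to 0.50 on the log2 scale. For Eln it became less positive, and for Efemp1 more positive by 0.87 ± 0.12.

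The opposite differences of elastin and Fbln5 gave a ratio that parted within libraries, where no scaling enters. The ratio of Eln to Fbln5 counts was 0.770, 0.543 and 0.865 in PM. At D7.5 it was 1.34 ± 0.20 in CD1530 and 0.409 ± 0.046 in AGN 193109, and at D10 it was 7.04 ± 0.05 and 1.64 ± 0.04 (SD, n = 3). The log2 difference of the ratio at D10 was 2.10. The exact permutation p was 0.1 at each day from D6.75 on, the smallest possible with 3 against 3 libraries. It was 0.154 after adjustment over the 20 ratio tests. The pair was chosen knowing the members' values, so the ratio restates the differences of the 2 genes and adds no separate evidence.

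**Figure D3:**
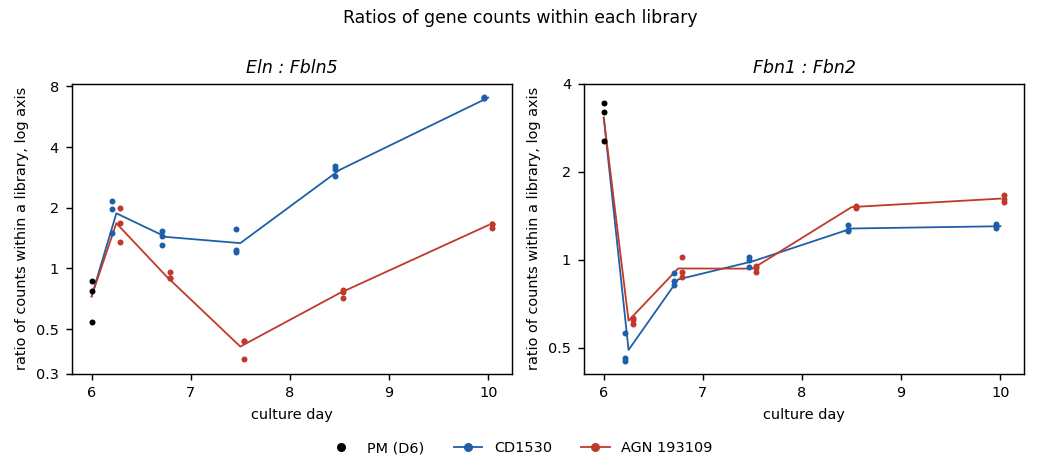
Ratios of counts within each library on log axes against culture day, for Eln to Fbln5 (left) and Fbn1 to Fbn2 (right), 1 point per library with lines through the means of CD1530 (blue) and AGN 193109 (red) from PM (black). The Eln to Fbln5 ratio ends at 7.04 in CD1530 and 1.64 in AGN 193109, and the Fbn1 to Fbn2 ratio drops from 3.06 in PM to under 1 at D6.25 in both.

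Elastic fibers are also built and altered by enzymes and accessory proteins, and 22 such genes in 4 lists were examined at D10. Their counts are read beside the 46.6% of all genes called at that day, 22.7% higher and 24.0% lower, so that calls in both directions were common. All 5 lysyl oxidase genes, whose products cross-link elastin and collagen, were called. Lox was the higher one of most counts, at 1842, 1837 and 1833 CPM in CD1530 and 1054, 1034 and 1025 CPM in AGN 193109 (0.82 ± 0.10). Loxl1, whose product acts on elastin with fibulin-5, went the other way, at 209, 212 and 212 CPM against 372, 365 and 349.7 CPM (-0.78 ± 0.04). Loxl2 was higher (0.41 ± 0.04), and Loxl3 and Loxl4 were lower. The list's median was -0.33.

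All 4 genes in the list named for latent TGFβ binding proteins were called, 2 in each direction. Ltbp2 was at 174, 184 and 168 CPM in CD1530 and 78.3, 85.7 and 83.0 CPM in AGN 193109 (1.09 ± 0.08). Ltbp4, whose product takes part in elastin assembly, was higher by 0.23 ± 0.05. Ltbp1 was at 208, 204 and 209 CPM against 388, 396 and 355 CPM (-0.88 ± 0.05), and Ltbp3 was lower (-0.72 ± 0.07). Each of these groups of libraries was separate from the other.

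All 5 accessory microfibril genes passed the test, of which 3 were higher with CD1530 and 2 with AGN 193109. Mfap5, the relative of Mfap2, was at 7.17, 7.48 and 6.46 CPM in CD1530 and at 1.31, 1.32 and 1.19 CPM in AGN 193109, from 20 to 22 counts in the latter (2.46 ± 0.21). It thus differed in the opposite direction to Mfap2. Emilin2 (1.28 ± 0.12) and Fbln7 (0.42 ± 0.16, adjusted p 0.0293, with overlapping libraries) were also higher. Emilin1, whose product sits at the border of elastin and microfibrils, was lower at 875 against 1182 CPM (-0.43 ± 0.04).

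Of 8 genes of ADAMTS and ADAMTS-like proteins, which bind or cut fibrillin microfibrils and related matrix proteins, 7 were lower in CD1530 at D10 and 0 were higher, beside 24.0% and 22.7% of all genes, with a list median of -0.66. The count of called genes in this list over the 4 earlier days was 0, 2, 4 and 5 in order, beside 1.92%, 18.0%, 26.9% and 40.0% of all genes, and 1 of the 4 at D7.5 was higher. Adamtsl2, which encodes a binding partner of fibrillin-1, had the largest difference among the 10 members and the 22 genes of these lists. It was at 2.78, 4.16 and 3.12 CPM in PM and at 73.5, 76.1 and 73.2 CPM in CD1530 against 702, 681 and 672 CPM in AGN 193109 at D10 (-3.21 ± 0.05, 9.22-fold lower in CD1530). Adamtsl3 (-1.53 ± 0.22), Adamts6 (-1.27 ± 0.09) and Adamts10 (-0.78 ± 0.06) were lower as well, and Adamtsl4 was not called (-0.01 ± 0.15). The cartilage marker sum differed in the same direction as these genes, and its part in the result was not tested.

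**Figure D4:**
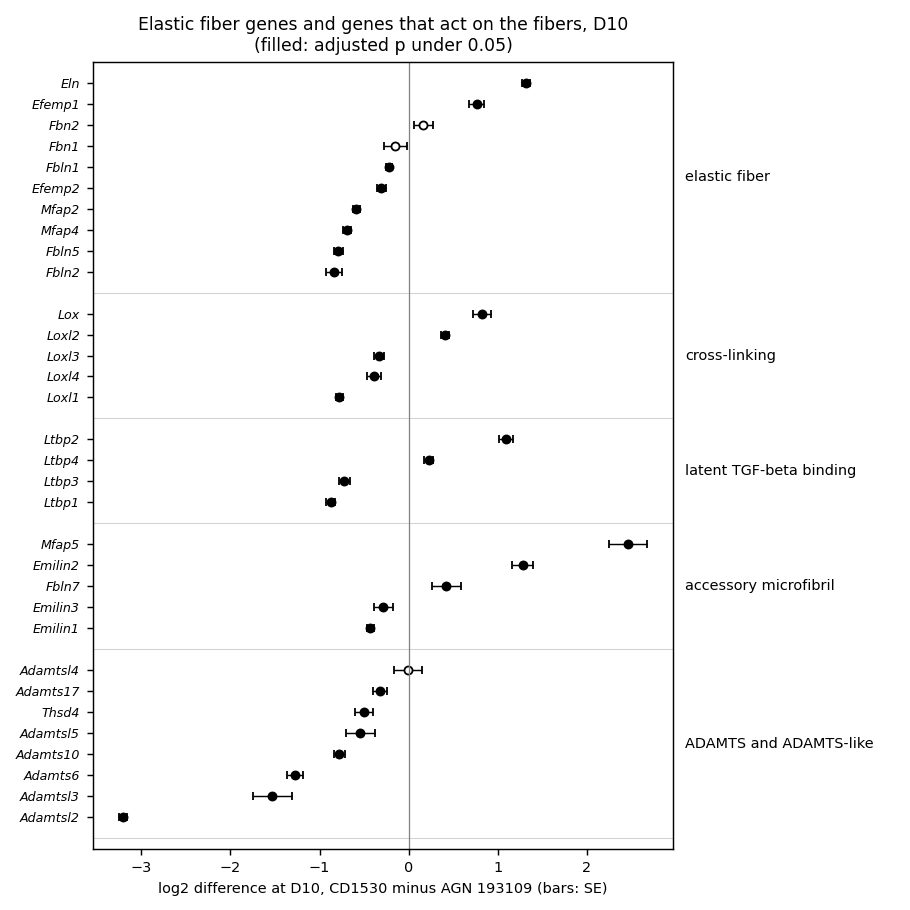
Log2 difference CD1530 minus AGN 193109 at D10 (x axis, SE bars) for the 10 elastic fiber genes and 22 genes of 4 lists that act on the fibers, grouped by role and ordered by size, with filled points where the adjusted p was under 0.05. Each of the 5 groups drawn except the ADAMTS group holds genes on both sides of 0, and Adamtsl2 lies farthest to the left at -3.21.

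As a description, the likeness of expression patterns was given by Pearson's r of log2(CPM + 1) over the 11 group means, which share the PM libraries and the time axis. Among the members, Mfap2 and Mfap4 were the most alike (r = 0.989), and Mfap2 and Efemp2 followed a close course (r = 0.985). Elastin was close to Fbln5 (0.949) but not to Fbln2 (0.383). Efemp1 resembled no other member, with r from -0.509 (Fbln2) to 0.0474 (Eln). Among 11292 other genes, those most like elastin were Gxylt2 (0.996) and Fndc10 (0.991), and those most like Fbn1 were Col5a2 (0.998) and Cacna1g (0.996). The closest to Fbln2 was the cartilage collagen gene Col2a1 (0.979), and the closest to Fbln5 were Svep1 (0.992) and Cilp (0.991). For the others, the first match was Dync1li2 for Fbn2 (0.993), Lix1l for Mfap2 (0.997), Hip1 for Mfap4 (0.997), Rxrb for Fbln1 (0.990), Tgoln1 for Efemp1 (0.941) and Wipi1 for Efemp2 (0.991).

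The counting was not stated to use strand, and exons of 5 members overlap a gene on the opposite strand. For Fbn1 the overlap with Gm9913 covers 20.1% of its exon bases, and the overlaps of Mfap4 with Mapk7 and of Efemp2 with Mus81 cover 4.63% and 4.57%. Reads from those stretches cannot be assigned to 1 strand. For Eln and Fbn2 the overlapping genes, Gm30003 and Gm26507, had no row in the table used here.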

How the data were processed

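RNA-seq was performed on 33 libraries, 3 biological replicates in each of 11 groups. The authors aligned reads to GRCm38 with STAR, and the deposited values are whole-number read counts per gene from featureCounts; the annotation release and strand setting are not given in the sources used here. Here the counts of 17120 genes were fitted in edgeR 4.0.16 (R 4.3.3) with 1 mean per group over all libraries, TMM scaling and robust quasi-likelihood dispersions (biological coefficient of variation 4.68%). filterByExpr removed no gene. P-values were Benjamini-Hochberg adjusted over all genes, and 95% intervals were taken as normal. Positions came from GENCODE M21 (GRCm38), which held 17117 of the 17120 identifiers. Code was tested on simulated counts. Intervals and p-values cover the spread between these replicates only.

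The members and gene lists were chosen with earlier results of these data known. The text names all 10 members and, of each other list, its counts and up to 4 called genes of largest difference at D10, and, for likeness, the closest genes with a mean of at least 5 CPM. Loxl3 and Adamtsl4 were named after their values were seen. Alternatives were DESeq2 1.42.0 and its size factors, scaling by library size only, other filters (none, or at least 1 CPM in 3 libraries), fits of only the groups compared, a replicate block, and leaving out each library. Same-numbered replicates deviated together, with every correlation over 0.1, in 1 of 17 comparisons of 2 groups, from CD1530 D6.25 to D6.75, so the numbers were not taken to pair samples.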

Additional observations from a re-analysis of the deposited data

Results flagged for a closer look

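8 of the 10 elastic fiber genes were flagged because the effect of the ligand differed between days, by the test over all 5 days. In that test 48.8% of all genes were called. The adjusted p-values (edgeR) were 1.26e-14 for Eln, 1.77e-12 for Mfap2, 2.79e-11 for Mfap4, 2.26e-10 for Fbln1, 0.000783 for Fbln2, 9.21e-06 for Fbln5, 1.02e-07 for Efemp1 and 0.0113 for Efemp2.

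7 members were flagged because the difference between the ligands changed over the last step, that is between D8.5 and D10. In that test 26.8% of all genes were called. The log2 difference CD1530 minus AGN 193109 moved by -0.33 for Eln, -0.19 for Mfap2, -0.27 for Mfap4, -0.30 for Fbln1, -0.50 for Fbln2 and -0.40 for Fbln5, and by 0.87 for Efemp1. For Eln this brought the conditions closer on the log2 scale, and for Fbln1 it took the difference from above to below 0.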

How the results depend on the processing

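The count of members called was within 1.5 times of the reported one in all 19 comparisons under every alternative, except that at D6.25 it went from 0 to 1 (Fbln2, adjusted p 0.036) without CD1530 replicate 2. With the replicate block, 188 of 190 member results kept their direction and call, and 2 gained a call: Fbln1 at D8.5 (0.08) and Fbln2 at D7.5 (-0.23, adjusted p 0.0289), which was also called in 6 other alternatives. Over all genes, fitting only the groups compared called 804 in place of 329 genes between the ligands at D6.25, 1236 in place of 3076 at D6.75, and 5185 in place of 7853 and 2792 in place of 5854 at the CD1530 steps into and out of D6.75. Leaving out 1 library at D6.25 gave as few as 196. Signs turned only for uncalled differences near 0. With library size only these were Fbln1 at D6.25 (0.0036), Efemp2 in CD1530 (-0.0396) and Fbln2 in AGN 193109 (-0.0635) from D7.5 to D8.5. With only the groups compared, Efemp2 in that CD1530 step was -0.0027. With DESeq2 size factors and with DESeq2, Fbn2 at D8.5 was -0.0065 and -0.0063. Scaling by library size only moved the median of all genes to -0.15 in AGN 193109 from PM to D10, and to -0.13 and -0.11 over the last step in CD1530 and AGN 193109. Leaving out 1 library turned the sign of 14 uncalled results, with ranges between the ligands of -0.0256 to 0.0191 (Fbln1), -0.2485 to 0.0456 (Fbln5) and -0.0612 to 0.0504 (Efemp1) at D6.25, -0.2081 to 0.0614 (Fbn1) and -0.1207 to 0.1867 (Fbn2) at D6.75, -0.0072 to 0.1495 (Fbn1), -0.0767 to 0.0628 (Fbn2) and -0.0481 to 0.0006 (Efemp2) at D7.5, and -0.0491 to 0.0524 (Fbn2) at D8.5. Within CD1530 they were -0.0441 to 0.2628 (Fbn2, D6.25 to D6.75) and -0.0171 to 0.0316 (Efemp2, D7.5 to D8.5), and within AGN 193109 -0.2007 to 0.0933 (Fbln5, PM to D6.25), -0.0145 to 0.115 (Fbln2, D6.75 to D7.5) and -0.0254 to 0.0523 (Fbln2, D7.5 to D8.5). Without CD1530 replicate 1 at D6.75, Mfap2 (-0.13, adjusted p 0.00629) and Efemp2 (-0.15, adjusted p 0.026) were called there. The causes were not tested.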
